A study of Mus musculus with 13 samples.

Results

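The myosin heavy chain genes Myh1, Myh2, Myh3, Myh4, Myh6, Myh7, Myh8, Myh9, Myh10 and Myh11 were taken by gene symbol from an RNA-seq count table of mouse muscle cell cultures, giving 10 of 23366 listed genes. The 13 libraries came from primary myoblasts of the hind limb muscle of pups at postnatal days 2 to 3, on a mixed strain background, and from myotubes made from such myoblasts by 24 h in medium with 1% horse serum. The groups were dICR/dICR myotubes (2 libraries), wild-type myotubes (5), dICR/dICR myoblasts (2) and wild-type myoblasts (4). In dICR/dICR cells both copies of the imprinting control region of the Igf2 and H19 locus are deleted, and wild-type cells have the region intact. This region normally keeps Igf2, a growth factor gene, and H19, a long noncoding RNA gene, active on opposite parental chromosomes. H19 was the check of the deletion. Levels are in CPM, read counts scaled to the library total times its TMM normalization factor. H19 had 52.4 to 71.5 CPM in dICR/dICR cells and 2340 to 40500 CPM in wild-type cells. The study asked what loss of this region does to gene expression before and after differentiation. All groups share the pup age, the muscle source and the primary culture, and the labels do not say which cultures or animals the libraries came from, so p-values measure the spread between these libraries, which may be in part technical. The design text of the series speaks of 2 or 3 replicates a group, where the titles give wild type 4 and 5 libraries, and whether all of these were separate cultures is not stated.

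A myosin heavy chain carries the motor domain and the long coiled-coil tail of a class II myosin, and its tails pack into the thick filament. Sarcomeric chains differ by developmental stage and fibre type: Myh3 is the embryonic form, Myh8 the neonatal form, Myh2, Myh1 and Myh4 the adult fast forms of type IIa, IIx and IIb fibres, Myh7 the slow form shared with heart, and Myh6 the cardiac alpha form. Myh9 and Myh10 encode nonmuscle myosins IIA and IIB, which drive cell division, migration and adhesion in cells of many types, and Myh11 encodes the smooth muscle form. In developing muscle the embryonic and neonatal chains come before the adult fast and slow chains.

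Myh3, Myh2, Myh1, Myh4 and Myh8 stand in one cluster on chromosome 11, on the plus strand, and Myh6 and Myh7 stand side by side on chromosome 14. Promoters are shown because genes of this cluster rose in comparisons that follow, though not the same ones in each fit. RefSeq (GRCm38.p6) had a promoter for 9 of the 10 members, and the 250 bases before the start site follow for the embryonic gene, the neonatal gene and 2 of the adult fast genes. Capitals mark matches to the E-box CANNTG, the site bound by MyoD-family factors, and to the site of MEF2 factors, both searched on both strands.
Myh3, chr11:67078050-67078299, plus strand: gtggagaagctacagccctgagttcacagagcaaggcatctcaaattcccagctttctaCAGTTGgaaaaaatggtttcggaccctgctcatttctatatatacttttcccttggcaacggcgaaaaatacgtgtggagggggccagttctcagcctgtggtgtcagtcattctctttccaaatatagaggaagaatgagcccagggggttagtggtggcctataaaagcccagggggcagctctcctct
Myh8, chr11:67276874-67277123, plus strand: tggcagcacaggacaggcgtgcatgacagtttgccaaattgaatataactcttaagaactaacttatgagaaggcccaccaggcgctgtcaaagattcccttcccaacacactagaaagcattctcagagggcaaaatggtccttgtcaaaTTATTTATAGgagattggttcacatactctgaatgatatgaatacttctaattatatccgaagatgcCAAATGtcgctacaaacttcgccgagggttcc
Myh1, chr11:67199852-67200101, plus strand: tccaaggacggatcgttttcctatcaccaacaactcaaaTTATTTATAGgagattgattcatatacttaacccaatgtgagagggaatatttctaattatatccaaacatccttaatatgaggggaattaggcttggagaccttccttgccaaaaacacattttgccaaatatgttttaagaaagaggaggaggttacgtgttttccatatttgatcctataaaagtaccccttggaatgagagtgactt
Myh4, chr11:67237562-67237811, plus strand: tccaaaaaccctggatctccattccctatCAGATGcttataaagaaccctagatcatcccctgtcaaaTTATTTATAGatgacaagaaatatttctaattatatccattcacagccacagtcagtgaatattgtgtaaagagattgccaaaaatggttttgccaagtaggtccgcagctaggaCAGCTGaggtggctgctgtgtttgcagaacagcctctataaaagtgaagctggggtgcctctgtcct

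The promoters of Myh1, Myh4 and Myh8 each held 1 MEF2 match, with the same letters in all 3, with the first letter at -211, -182 and -99 from the start site, and the promoters of the other members had none. Of 32851 mouse promoters of this length, 2.92% held a MEF2 match. Myh3 held 1 E-box and a TATAAA at -29, and Myh1 held no E-box and a TATAAA at -32. The Myh2 promoter, not printed here, held no E-box, no MEF2 match and no TATAAA. In wild-type differentiation over all libraries, Myh3, Myh1 and Myh2 passed and Myh8 and Myh4 did not. The part of these matches in the changes was not tested. An E-box was present in 66.2% of all promoters and TATAAA in 12.4%. Matches describe letters in these windows and not bound sites.

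Because the sarcomeric genes are close copies, their reads can be hard to place. The longest run shared by the coding sequences of Myh1 and Myh2 is 268 bases, at positions 2711 to 2978 of both counted from the start codon (GRCm38, GENCODE transcripts, chromosome 11), and it is shown as a stretch in which no read can tell the IIx from the IIa gene.
Myh1 and Myh2: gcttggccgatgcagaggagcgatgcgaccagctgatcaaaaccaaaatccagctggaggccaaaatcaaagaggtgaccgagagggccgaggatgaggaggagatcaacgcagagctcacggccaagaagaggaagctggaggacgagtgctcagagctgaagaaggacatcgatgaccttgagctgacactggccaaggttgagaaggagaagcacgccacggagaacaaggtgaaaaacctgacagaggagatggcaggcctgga
The reads were 101 bases on 1 instrument and 35 and 75 bases on the other, and 75-base windows present in another myosin heavy chain gene made up 16.6% of the Myh1 transcript, 16.3% of Myh2, 15.5% of Myh6, 15.3% of Myh7, 12.9% of Myh8 and 9.68% of Myh4. The share was 1.86% for Myh3 and under 0.66% for Myh9, Myh10 and Myh11. For 35-base windows the shares were 36.2% for Myh1, 35.6% for Myh2, 30.0% for Myh6, 29.3% for Myh7, 29.5% for Myh8, 27.2% for Myh4, 8.97% for Myh3, 1.58% for Myh9, 1.23% for Myh10 and 0.888% for Myh11. Counts of Myh9, Myh10 and Myh11 are thus little exposed to shared reads at either length, Myh3 is more exposed at the shorter one, and counts of the adult fast genes, Myh8 and the Myh6 and Myh7 pair are uncertain by the part that the counting could move between copies.

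**Figure D1:**
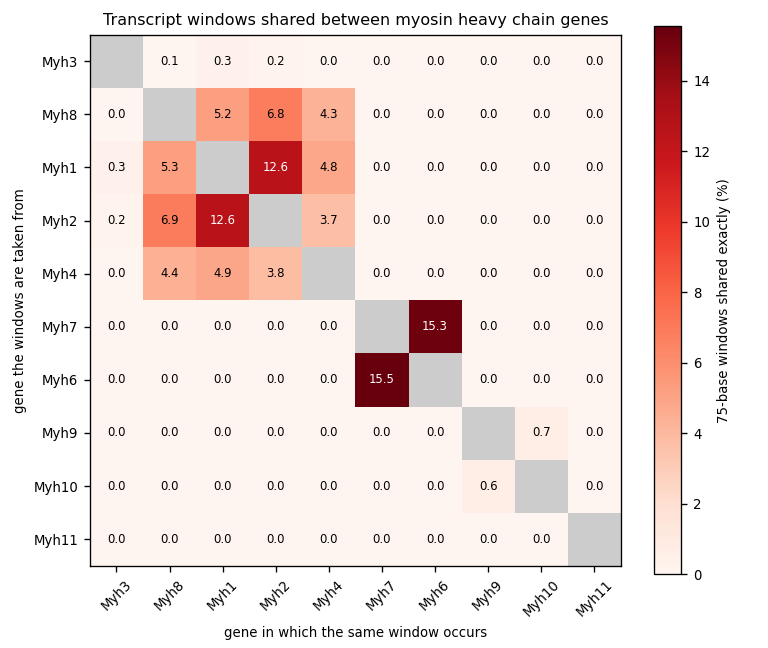
Share of 75-base windows of each myosin heavy chain transcript (rows) that occur exactly in another one (columns), in percent; grey cells are a gene with itself. Most of the sharing lies within the Myh8, Myh1, Myh2 and Myh4 block and the Myh6 and Myh7 pair, with Myh1 and Myh2 at 12.6% and Myh6 and Myh7 at 15.5% and 15.3%. Smaller values stand outside them, such as 0.652% of Myh9 in Myh10 and 0.336% of Myh3 in Myh1.

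The libraries fall into 2 sets by depth. Total counts ran from 35.56 to 56.44 M in 7 deep libraries (dICR/dICR myotubes 1 and 2, wild-type myotubes 1 to 3, wild-type myoblasts 1 and 2) and from 5.31 to 10.91 M in 6 shallow ones (wild-type myotubes 4 and 5, dICR/dICR myoblasts 1 and 2, wild-type myoblasts 3 and 4). The share of counts from small nucleolar RNAs was at most 0.133% in any deep library and at least 2.79% in any shallow one. The labels name sequencing on an Illumina and on a SOLiD instrument without saying which library went on which. Both dICR/dICR myotube libraries are deep and both dICR/dICR myoblast libraries are shallow, so in dICR/dICR cells the stage and the depth set cannot be told apart. Values within a set are therefore given beside those over all libraries where a set holds both groups. The Y-linked gene Ddx3y splits the wild-type libraries in the same way, at 27.6 to 176 CPM in the 5 deep and 0.153 to 0.462 CPM in the 4 shallow ones, so in wild type the depth set and Y-linked expression cannot be told apart. The summed level of the myotube markers (5 of 6 listed genes tested) was 4150 and 6850 CPM in dICR/dICR myotubes, 10500 to 17600 CPM in wild-type myotubes, and 1170 and 754 CPM in dICR/dICR myoblasts. In wild-type myoblasts the sum was 1040 and 1160 CPM in the deep libraries but 4920 and 5350 CPM in the shallow ones, so these last myoblast libraries carried markers of differentiation. In such bulk cultures, fewer differentiated cells and less RNA per cell cannot be told apart. Markers of endothelium and of macrophages and leukocytes stayed under 6.3 CPM in sum in every library. Fibroblast markers summed to 2.28 and 11.8 CPM in dICR/dICR myotubes, 1.03 to 84.4 CPM in wild-type myotubes, 2.11 and 3.00 CPM in dICR/dICR myoblasts and 0.740 to 2.95 CPM in wild-type myoblasts, with wild-type myotubes 2, 3 and 4 highest at 29.7, 84.4 and 20 CPM. Of 3 fibroblast markers tested, 1 rose in wild-type differentiation, the collagen gene Col1a1, and the part of these markers in the results was not tested.

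RNA of the embryonic chain dominated the sarcomeric set at both stages. On the scale of CPM per kilobase of transcript, used for every comparison of levels between genes, Myh3 stood at 904 ± 419 in dICR/dICR myotubes (SD, n = 2), 1950 ± 517 in wild-type myotubes (n = 5), 153 ± 86.8 in dICR/dICR myoblasts (n = 2) and 395 ± 310 in wild-type myoblasts (n = 4). It made up 83.2 ± 1.63% of the 7 sarcomeric chains in dICR/dICR myotubes, 80.0 ± 11.3% in wild-type myotubes, 75.0 ± 2.76% in dICR/dICR myoblasts and 71.3 ± 9.83% in wild-type myoblasts. Myh8 came next on the mean, with 8.91 ± 0.700%, 10.4 ± 8.79%, 12.6 ± 1.41% and 10.2 ± 1.30% in the same groups, and it was below Myh3 in every library. Across the libraries of each wild-type group the share of Myh7 overlapped those of Myh1 and Myh8. Within each wild-type myoblast library Myh8 was above Myh1, at 11.2, 11.0, 10.3 and 8.36% against 7.35, 8.51, 6.63 and 5.34%. In wild-type myoblasts 1 and 2 Myh7 was above Myh8, at 13.0 and 13.6%. In wild-type myotube 1 both Myh7 and Myh1 were above Myh8, at 4.19 and 1.23% against 0.908%. Myh4, Myh6 and Myh2 were the lowest, with mean shares of 0.842 to 1.84% for Myh4, 0.377 to 1.04% for Myh6 and 0.108 to 0.237% for Myh2.

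The adult fast genes Myh1, Myh2 and Myh4 together made up 3.71 and 2.64% of the sarcomeric sum in dICR/dICR myotubes, against 1.31, 3.50, 5.32, 11.0 and 8.61% in wild-type myotubes. In dICR/dICR myoblasts they made up 1.82 and 4.48%, against 10.2, 11.4, 8.01 and 6.56% in wild-type myoblasts. The myoblast groups did not overlap, also within the shallow set, and the myotube groups did. Within the nonmuscle and smooth muscle set, Myh9 took 84.7 ± 4.24% in dICR/dICR myotubes, 91.9 ± 1.95% in wild-type myotubes, 80.2 ± 4.03% in dICR/dICR myoblasts and 86.6 ± 2.34% in wild-type myoblasts, and Myh10 took nearly all of the rest. No test was made on shares.

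**Figure D2:**
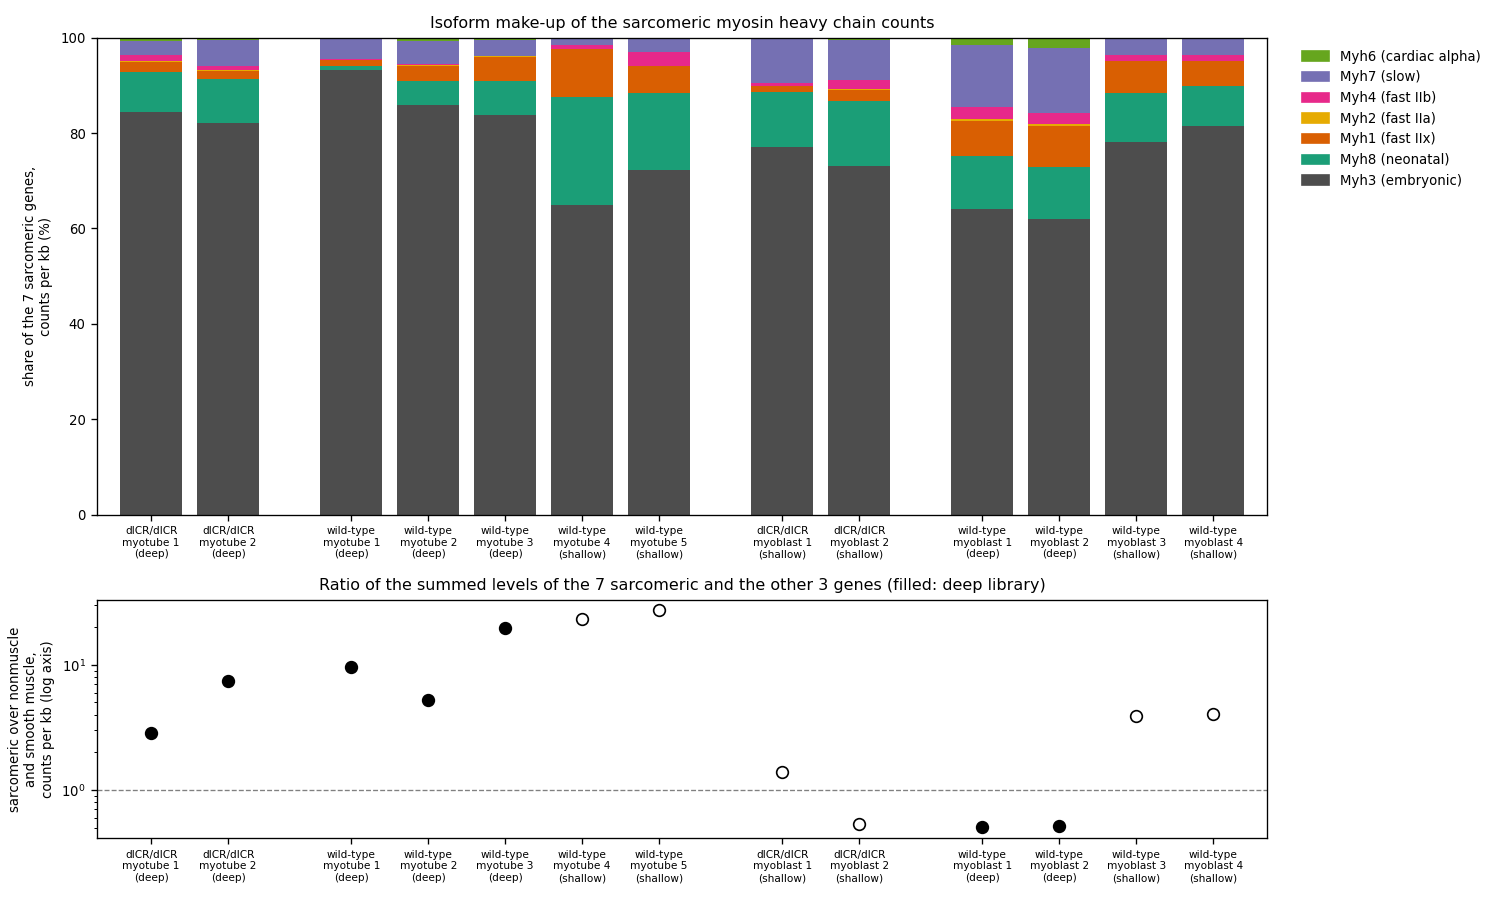
Top, share of each of the 7 sarcomeric genes in their summed counts per kilobase (percent, stacked bars, 1 bar a library); bottom, ratio of the summed sarcomeric level to that of Myh9, Myh10 and Myh11 (log axis; filled points are deep libraries, and the dashed line marks equal sums). Myh3 is the tallest block in every library, at 61.9 to 93.2%, and the ratio is 2.84 and 7.37 in dICR/dICR myotubes and 5.23 to 27.2 in wild-type myotubes.

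The ratio of the summed sarcomeric level to the summed level of Myh9, Myh10 and Myh11, both per kilobase, was 2.84 and 7.37 in dICR/dICR myotubes, against 9.53, 5.23, 19.7, 23.4 and 27.2 in wild-type myotubes. It was 1.38 and 0.535 in dICR/dICR myoblasts, against 0.502 and 0.515 in the deep and 3.93 and 4.04 in the shallow wild-type myoblasts. The deep wild-type myoblasts thus had more RNA counts per kilobase from Myh9, Myh10 and Myh11 than from the sarcomeric genes, and the shallow ones the reverse. This split runs with the myotube markers above, and its part in the comparisons below was not tested.

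Wild-type myotubes against wild-type myoblasts asks which chains change over 24 h of differentiation. Over all 13 libraries, 6 of the 10 members passed the test (edgeR quasi-likelihood, Benjamini-Hochberg adjusted p under 0.05 over 16537 genes): Myh3, Myh1, Myh2, Myh7 and Myh6 rose and Myh10 fell. Of all genes tested, 19.1% passed, 8.86% higher and 10.2% lower. With library size alone as the scaling, the 1466 higher and 1692 lower genes became 779 and 2825 (4.71 and 17.1%), the median gene shifted to -0.26 (log2) from 0.02, and 4 members passed, where 21.8% of genes did.

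Myh3 had 10800, 8850, 12900, 9530 and 16600 CPM in wild-type myotubes 1 to 5, against 828, 702, 3920 and 4080 CPM in wild-type myoblasts 1 to 4. The groups did not overlap, and the shallow myoblast libraries were the high ones. Its log2 fold change was 2.30 ± 0.58 (SE; edgeR adjusted p = 0.0173), and it passed whichever single library was left out. Within the deep set the change was 3.86 ± 0.49 (edgeR adjusted p = 0.00347) and within the shallow set 1.73 ± 0.46 (edgeR adjusted p = 0.0329). In these fits 22.2 and 22.6% of all genes passed. The difference between those changes, shallow minus deep, was -2.13 ± 0.53 and did not pass (edgeR adjusted p = 0.137; 0.222% of genes did), while the shallow wild-type myoblasts exceeded the deep ones by 2.42 ± 0.40 (edgeR adjusted p = 0.00358). This last comparison, of libraries that differ in depth, calls 21.8% of genes.

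Myh10, nonmuscle myosin IIB, was the member that fell. It had 113, 170, 71.9, 62.9 and 115 CPM in wild-type myotubes, against 416, 301, 262 and 231 CPM in wild-type myoblasts. Every myotube library was below every myoblast library, in both depth sets. The log2 fold change was -1.51 ± 0.33 (edgeR adjusted p = 0.00907), it was -1.57 ± 0.41 in the deep and -1.45 ± 0.32 in the shallow set (edgeR adjusted p = 0.0329 and 0.0179), and it passed with any 1 library left out. Myh9, nonmuscle myosin IIA, had 710 to 2270 CPM in wild-type myotubes, against 1310 to 2770 CPM in wild-type myoblasts. These ranges overlapped, and the change of -0.66 ± 0.36 did not pass (edgeR adjusted p = 0.23) except with the depth set as a term (-0.73 ± 0.24, edgeR adjusted p = 0.0345; 31.8% of genes passed) or without wild-type myotube 2 (-0.98, edgeR adjusted p = 0.0386). Within a set it was -0.74 ± 0.40 in the deep and -0.67 ± 0.22 in the shallow libraries (edgeR adjusted p = 0.206 and 0.0668).

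Among the adult fast chains, Myh1 had 144, 314, 762, 1500 and 1310 CPM in wild-type myotubes, against 95.9, 97.3, 336 and 270 CPM in wild-type myoblasts. Levels were lower in the deep libraries than in the shallow ones at both stages, and within each set every myotube library was above every myoblast library. The change of 2.01 ± 0.65 passed narrowly (edgeR adjusted p = 0.0485). It did not pass without wild-type myoblast 1, 2 or 4 (edgeR adjusted p = 0.129, 0.131 and 0.066), without wild-type myotube 3, 4 or 5 (0.0787, 0.0993 and 0.0926), or without any 1 of the dICR/dICR libraries (0.0628 to 0.066). Within the shallow set it was 2.23 ± 0.20 (edgeR adjusted p = 0.000588), and within the deep set 2.11 ± 0.65 (edgeR adjusted p = 0.054).

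Myh2 was low throughout, at 4.50, 15.6, 37.8, 13.1 and 15.7 CPM in wild-type myotubes, against 4.77, 4.31, 6.54 and 3.83 CPM in wild-type myoblasts. Wild-type myotube 1 lay within the myoblast range and the other 4 above it. Its change was 1.84 ± 0.50 (edgeR adjusted p = 0.0243), and it missed the threshold without wild-type myoblast 1, 2 or 4 (edgeR adjusted p = 0.0656, 0.0707 and 0.0551) or wild-type myotube 3 (0.0515). Within the shallow set it passed at 1.48 ± 0.36 (edgeR adjusted p = 0.0239), and within the deep set it was 2.12 ± 0.82 and did not (edgeR adjusted p = 0.099).

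Myh4 spread most, with 4.38, 32.8, 26.5, 114 and 665 CPM in wild-type myotubes, against 32.2, 28.1, 62.5 and 56.8 CPM in wild-type myoblasts. The 2 shallow myotube libraries were the high ones and wild-type myotube 1 the lowest of all. The change of 1.91 ± 1.06 did not pass (edgeR adjusted p = 0.235), it was -0.01 without wild-type myotube 5, -0.47 ± 0.67 within the deep set, and 2.73 ± 0.69 within the shallow set, where it passed (edgeR adjusted p = 0.0274). Shallow wild-type myotubes exceeded deep ones in Myh4 by 4.21 ± 0.84 (edgeR adjusted p = 0.0119), a comparison that calls 13.1% of genes, but the difference of the differentiation changes between the sets, 3.19 ± 1.20, did not pass (edgeR adjusted p = 0.292).

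The neonatal chain Myh8 had 108, 535, 1120, 3360 and 3810 CPM in wild-type myotubes, against 147, 127, 525 and 428 CPM in wild-type myoblasts. Wild-type myotube 1 fell below the myoblasts and the shallow myotubes were the highest. The change of 2.54 ± 0.88 missed the threshold (edgeR adjusted p = 0.0626). It passed within the shallow set at 2.93 ± 0.34 (edgeR adjusted p = 0.00125), without wild-type myotube 1 at 2.85 (edgeR adjusted p = 0.0217) and without wild-type myotube 2 at 2.78 (edgeR adjusted p = 0.0439). Within the deep set it was 2.13 ± 0.87 (edgeR adjusted p = 0.112).

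The slow chain Myh7 had 504, 515, 529, 207 and 639 CPM in wild-type myotubes, against 174, 160, 178 and 181 CPM in wild-type myoblasts. The myoblast libraries lay close together in both depth sets, and all myotube libraries were above them. Its change was 1.47 ± 0.42 (edgeR adjusted p = 0.0305), and the call was lost without any 1 wild-type myoblast library or without wild-type myotube 3 or 5 (edgeR adjusted p = 0.0556 to 0.081). It passed within neither set, at 1.66 ± 0.50 in the deep and 1.26 ± 0.54 in the shallow one (edgeR adjusted p = 0.0507 and 0.133).

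The cardiac alpha chain Myh6 had 50.3, 64.8, 68.6, 10.2 and 77.2 CPM in wild-type myotubes, against 21.1, 24.1, 11.5 and 10.6 CPM in wild-type myoblasts. Wild-type myotube 4 was as low as the shallow myoblasts, and it was also the lowest myotube library in Myh7. The change was 1.68 ± 0.49 (edgeR adjusted p = 0.033) over all libraries and 1.47 ± 0.29 (edgeR adjusted p = 0.0142) within the deep set. Within the shallow set it was 1.99 ± 0.77 and did not pass (edgeR adjusted p = 0.101), and the call over all libraries was lost without wild-type myoblast 1, 3 or 4 or wild-type myotube 3 or 5 (edgeR adjusted p = 0.0597 to 0.0753). The summed level of 6 cardiac muscle markers was 854 to 2540 CPM in wild-type myotubes, against 145 to 421 CPM in wild-type myoblasts. Nearly all of that sum was Tnnt2, the cardiac troponin T, which embryonic skeletal muscle also makes, at 1530 ± 622 CPM in wild-type myotubes (SD, n = 5) and 286 ± 152 CPM in wild-type myoblasts (n = 4). Each of the other markers stood at 2.44 CPM or less in every wild-type library, and the mean of Tnni3 was 0.323 CPM in wild-type myotubes and 0.334 CPM in wild-type myoblasts. For Myl7 it was 0.0366 CPM in wild-type myotubes and 0.0766 CPM in wild-type myoblasts, and the part of these markers in the Myh6 and Myh7 levels was not tested.

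Myh11 rested on 6 to 38 counts a library. It had 0.419 to 7.74 CPM in wild-type myotubes, against 0.117 to 1.23 CPM in wild-type myoblasts, with the highest value in wild-type myotube 5. The change of 1.73 ± 1.06 missed the threshold in the fit of all libraries (edgeR adjusted p = 0.284) and within the shallow set (1.87 ± 0.90, edgeR adjusted p = 0.173), and passed within the deep set at 1.79 ± 0.52 (edgeR adjusted p = 0.0456). Smooth muscle and pericyte markers summed to 2510 to 4850 CPM in wild-type myotubes, against 176 to 645 CPM in wild-type myoblasts. Most of the myotube sum was Acta2, smooth muscle actin, at 2120 to 4400 CPM in wild-type myotubes and 80.5 to 380 CPM in wild-type myoblasts. Of 10 listed genes tested, 4 rose and 1 fell, where 19.1% of all genes passed. Means of Pdgfrb, Cspg4 and Abcc9 were 21.6, 17.2 and 44.9 CPM in wild-type myotubes, against 0.171, 1.62 and 11.7 CPM in wild-type myoblasts. Pdgfrb spread from 0 to 79.8 CPM in wild-type myotubes. Means of the pericyte gene Rgs5 and of Notch3 were lower in wild-type myotubes, at 0.307 and 51.3 CPM, against 7.20 and 79.4 CPM in wild-type myoblasts. The part of these markers in the Myh11 level was not tested.

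**Figure D3:**
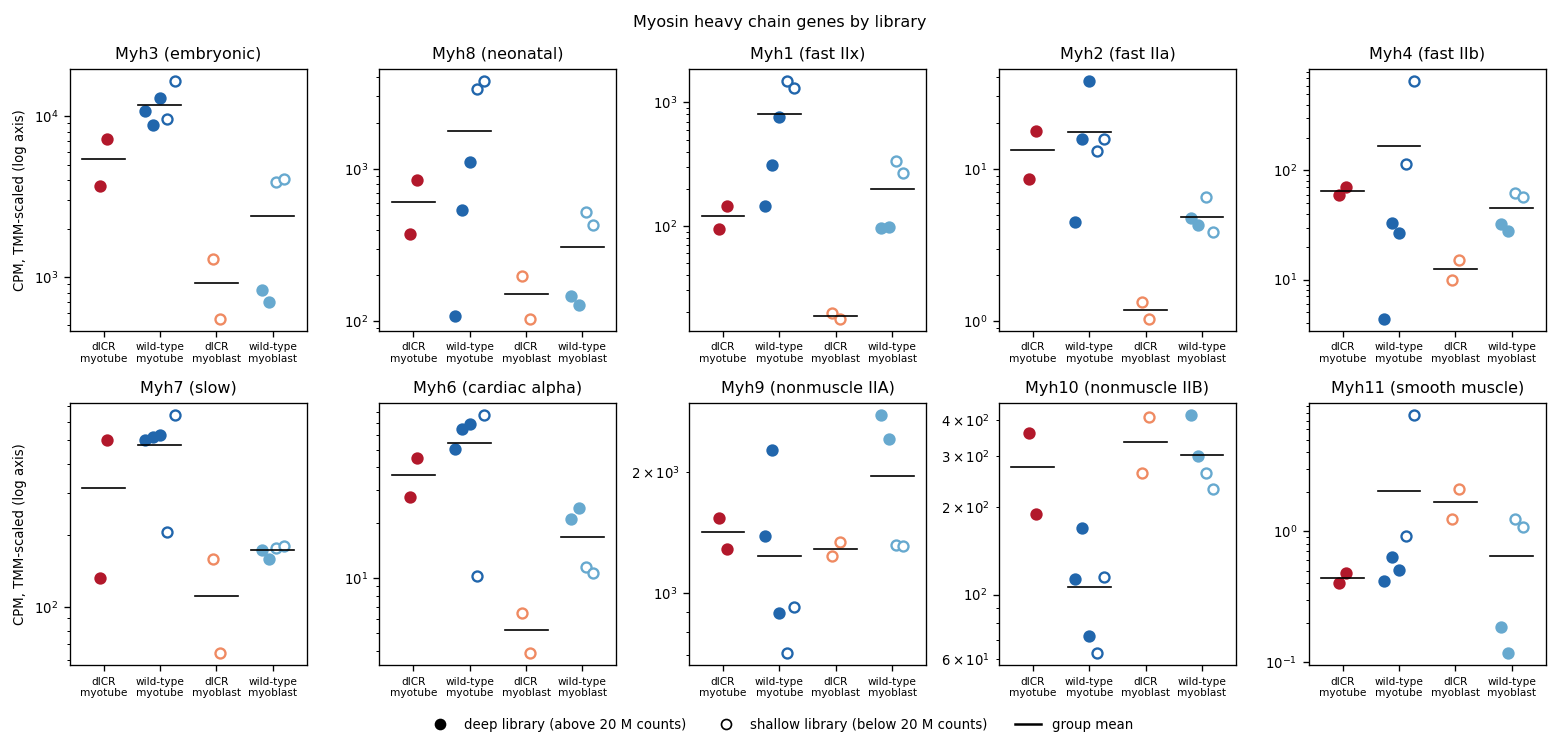
TMM-scaled CPM (log axis, own range in each panel) of the 10 myosin heavy chain genes in each library, by group; filled points are deep libraries, open points shallow ones, and bars are group means. Myh3 lies at 8850 to 16600 CPM in wild-type myotubes and at 702 to 4080 CPM in wild-type myoblasts, while Myh10 has its lowest values, 62.9 to 170 CPM, in wild-type myotubes.

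Genes that work with the sarcomeric chains moved in the same comparison, where 8.86% of all genes rose and 10.2% fell. Of 20 thick filament partners and myosin chaperones, 12 rose and 0 fell, with a median log2 fold change of 1.94, against 0.02 for all genes. The largest changes were those of Mybpc2, fast myosin binding protein C (3.71 ± 1.19), Trim63, the MuRF1 ubiquitin ligase of the sarcomere (3.11 ± 0.60), Myom2 and Myom1, myomesins of the M-band (2.93 ± 0.51 and 2.07 ± 0.56), Mybph, myosin binding protein H (2.52 ± 0.42), and Ttn, titin (2.40 ± 0.68), at edgeR adjusted p = 0.00276 to 0.0472. With library size alone 6 of the 20 rose, where 4.71% of all genes did. Mybpc2 was low, with 0.434 to 3.39 CPM in wild-type myotubes 1 to 4 and 22.6 CPM in wild-type myotube 5, against 0.168 to 0.919 CPM in wild-type myoblasts.

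The 12 partners and regulators of nonmuscle and smooth muscle myosin had a median of 0.60. Of these, 2 rose and 0 fell, where 19.1% of all genes passed in either direction. These were Ppp1r12a and Ppp1cb, the targeting and catalytic subunits of myosin light chain phosphatase (0.94 ± 0.21 and 0.84 ± 0.26, edgeR adjusted p = 0.0093 and 0.0421). Of 21 regulators of myosin heavy chain genes, 10 rose and 2 fell, with a median of 0.91. Sox6, a repressor of slow fibre genes, changed by 3.18 ± 0.78, Myog, the differentiation factor myogenin, by 2.63 ± 0.69, Mef2c by 2.44 ± 0.44, the transcriptional cofactor Eya4 by 2.00 ± 0.52, and Prox1, a homeobox factor that promotes the slow programme, by 1.97 ± 0.41. Myf5, a factor of proliferating myoblasts, changed by -2.12 ± 0.39. These 6 had edgeR adjusted p = 0.00365 to 0.0207. Of the other heavy chain genes Myh7b, Myh13, Myh14 and Myh15, none passed. The values of largest size were Myh15 at 2.93 ± 1.13 and Myh13 at 1.55 ± 1.31 (edgeR adjusted p = 0.0912 and 0.449), both with 20 counts or fewer in every library.

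For dICR/dICR myotubes against dICR/dICR myoblasts, no member passed over all libraries (edgeR), and 0.145% of all genes did, with 3172 genes at an unadjusted p under 0.05. DESeq2 called 3 members, Myh3, Myh2 and Myh6, and 7.73% of genes. Fitted log2 changes were positive for each of the 7 sarcomeric genes, Myh9 lay at 0.14 ± 0.54 and Myh10 at -0.29 ± 0.49. Myh3 had 3660 and 7220 CPM in dICR/dICR myotubes, against 1290 and 550 CPM in dICR/dICR myoblasts, a log2 fold change of 2.56 ± 0.85 (edgeR adjusted p = 0.168). Myh2 had 8.57 and 17.8 CPM in dICR/dICR myotubes, against 1.33 and 1.04 CPM in dICR/dICR myoblasts, a change of 3.46 ± 0.80 (edgeR adjusted p = 0.0767) that passed without wild-type myotube 3 (3.43, edgeR adjusted p = 0.0492). Neither pair of groups overlapped, which carries little weight with 2 libraries a group. The share of all genes without overlap was not counted, here or in the genotype comparisons.

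The tests over all libraries use a spread estimated together with the wild-type groups, and its part in the missing calls was not tested. When the 4 dICR/dICR libraries were fitted alone, a choice made after the data were seen, 6 members rose: Myh3 (2.49 ± 0.54), Myh8 (1.93 ± 0.48), Myh1 (2.60 ± 0.31), Myh2 (3.38 ± 0.56), Myh4 (2.30 ± 0.33) and Myh6 (2.71 ± 0.42), at edgeR adjusted p = 0.00259 to 0.0388, where 14.2% of all genes passed. Myh7, at 1.43 ± 0.65, did not pass (edgeR adjusted p = 0.196), and its levels were 133 and 500 CPM in dICR/dICR myotubes, against 159 and 64.4 CPM in dICR/dICR myoblasts. With the depth set as a term in the fit of all libraries, 5 members rose, Myh3, Myh8, Myh1, Myh2 and Myh4 (3.30 to 5.25), and 7.63% of genes passed. The depth term rests on the wild-type libraries, whose sets also differ in Ddx3y and, in myoblasts, in the myotube markers. The change and the depth set coincide in dICR/dICR cells, so neither the rise nor its size can be told apart from the depth set.

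From the lists, the essential light chain Myl1 was the only thick filament partner called, at 3.73 ± 0.49 (edgeR adjusted p = 0.0151). It had 591 and 1260 CPM in dICR/dICR myotubes, against 91.2 and 48.6 CPM in dICR/dICR myoblasts. The largest fitted value, that of the slow light chain Myl3, was 5.60 ± 4.48 and did not pass (edgeR adjusted p = 0.505). Myl3 was near the floor, at 0.166 and 0.272 CPM in dICR/dICR myotubes and 0 CPM in both dICR/dICR myoblast libraries. The list medians were 1.75 for thick filament partners, 0.78 for nonmuscle partners and 1.52 for regulators, against 0 for all genes, and no nonmuscle partner or regulator passed. Among these, Myl6 and Myl12b had the largest values of the nonmuscle list (4.26 ± 1.61 and 2.47 ± 0.79), and Prox1 and Myog those of the regulators (2.59 ± 0.62 and 2.40 ± 0.99, edgeR adjusted p = 0.0798 and 0.227).

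The differentiation changes of the genotypes were compared directly as a difference, dICR/dICR minus wild type. No member passed (edgeR), 0% of all genes did, 1643 genes had an unadjusted p under 0.05, and DESeq2 called no member and 0.291% of genes. The differences were 0.26 ± 0.96 for Myh3, -0.53 ± 1.46 for Myh8, 0.67 ± 1.10 for Myh1, 1.62 ± 0.89 for Myh2 and 1.22 ± 0.59 for Myh10 (edgeR adjusted p = 0.495 to 0.942). Myh10 had 362 and 189 CPM in dICR/dICR myotubes, against 263 and 408 CPM in dICR/dICR myoblasts, so these groups overlapped where the wild-type groups did not. A difference of the fall in Myh10 between genotypes was not shown by the test. Standard errors of the members' differences were 0.59 or more on the log2 scale, and differences of that size were not detectable here.

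For dICR/dICR against wild-type myotubes, no member passed over all libraries (edgeR), and 0.556% of all genes did, with 2773 genes at an unadjusted p under 0.05. The 7 sarcomeric genes all had negative fitted changes, from -0.40 for Myh2 to -2.75 for Myh1, and the median thick filament partner stood at -1.10, against -0.06 for all genes, with 0 of 20 called. Summed myotube markers were also lower, at 4150 and 6850 CPM in dICR/dICR myotubes, against 10500 to 17600 CPM in wild-type myotubes, and their part in these values was not tested.

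Myh3 had 3660 and 7220 CPM in dICR/dICR myotubes, against 8850 to 16600 CPM in wild-type myotubes. The groups did not overlap, but the change of -1.11 ± 0.71 did not pass (edgeR adjusted p = 0.442), and within the deep set it was -1.01 ± 0.43 (edgeR adjusted p = 0.281). Myh1 had 94.0 and 145 CPM in dICR/dICR myotubes, against 144 to 1500 CPM in wild-type myotubes, where wild-type myotube 1 reached down to the mutant level. Its change was -2.75 ± 0.90 (edgeR adjusted p = 0.172), -1.78 ± 0.64 within the deep set (edgeR adjusted p = 0.223), and DESeq2, which called 6.86% of genes here, called it at -2.85 (adjusted p = 0.00901).

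Myh10 had a positive fitted change where the sarcomeric genes had negative ones. It had 362 and 189 CPM in dICR/dICR myotubes, against 62.9 to 170 CPM in wild-type myotubes, with no overlap. The change of 1.37 ± 0.39 did not pass (edgeR adjusted p = 0.12), it was 1.20 ± 0.41 within the deep set (edgeR adjusted p = 0.205), and it passed without wild-type myotube 2 (1.57, edgeR adjusted p = 0.0259) and with DESeq2 (1.30, adjusted p = 0.0347). Myh9 had 1540 and 1290 CPM in dICR/dICR myotubes, inside the wild-type range, with a change of 0.20 ± 0.45, and -0.12 ± 0.40 within the deep set.

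For Myh8 and Myh4 the fit within the deep set gave values of the other sign, neither past the threshold. Myh8 had 373 and 845 CPM in dICR/dICR myotubes, against 108, 535 and 1120 CPM in deep and 3360 and 3810 CPM in shallow wild-type myotubes, so its change was -1.55 ± 1.10 over all libraries and 0.04 ± 0.80 within the deep set. Myh4 had 59.5 and 70.1 CPM in dICR/dICR myotubes, against 4.38, 32.8 and 26.5 CPM in deep and 114 and 665 CPM in shallow wild-type myotubes. Its change turned from -1.37 ± 1.35 over all libraries to 1.59 ± 0.67 within the deep set, and neither passed (edgeR adjusted p = 0.627 and 0.28). Within the deep set no member was called, where 0.709% of genes were.

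Over all libraries, ranges of the remaining chains overlapped between the genotypes. For Myh7 and Myh6 this rested on wild-type myotube 4, a shallow library. Deep wild-type myotubes had 504 to 529 CPM of Myh7 and 50.3 to 68.6 CPM of Myh6, above both dICR/dICR myotube libraries. Myh7 had 133 and 500 CPM in dICR/dICR myotubes, against 207 to 639 CPM in wild-type myotubes (-0.60 ± 0.52, and -0.72 ± 0.48 within the deep set). Myh6 had 27.8 and 44.9 CPM in dICR/dICR myotubes, against 10.2 to 77.2 CPM in wild-type myotubes (-0.58 ± 0.60, and -0.77 ± 0.29 within the deep set), and Myh2 had 8.57 and 17.8 CPM in dICR/dICR myotubes, against 4.50 to 37.8 CPM in wild-type myotubes (-0.40 ± 0.60, and -0.57 ± 0.76 within the deep set). Myh11 had 0.400 and 0.475 CPM in dICR/dICR myotubes, from 22 and 20 counts, against 0.419 to 7.74 CPM in wild-type myotubes, with -2.08 ± 1.31 over all libraries and -0.27 ± 0.48 within the deep set. Among the partners, the values of largest size were Mybpc2 at -3.25 ± 1.47 and the myomesin Myom3 at -1.96 ± 0.70, among nonmuscle partners Myl9, a regulatory light chain, at -1.04 ± 0.36, and among regulators Sox6 at -1.74 ± 0.93 and Myog at -1.50 ± 0.86, none called (edgeR adjusted p = 0.189 to 0.388).

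**Figure D4:**
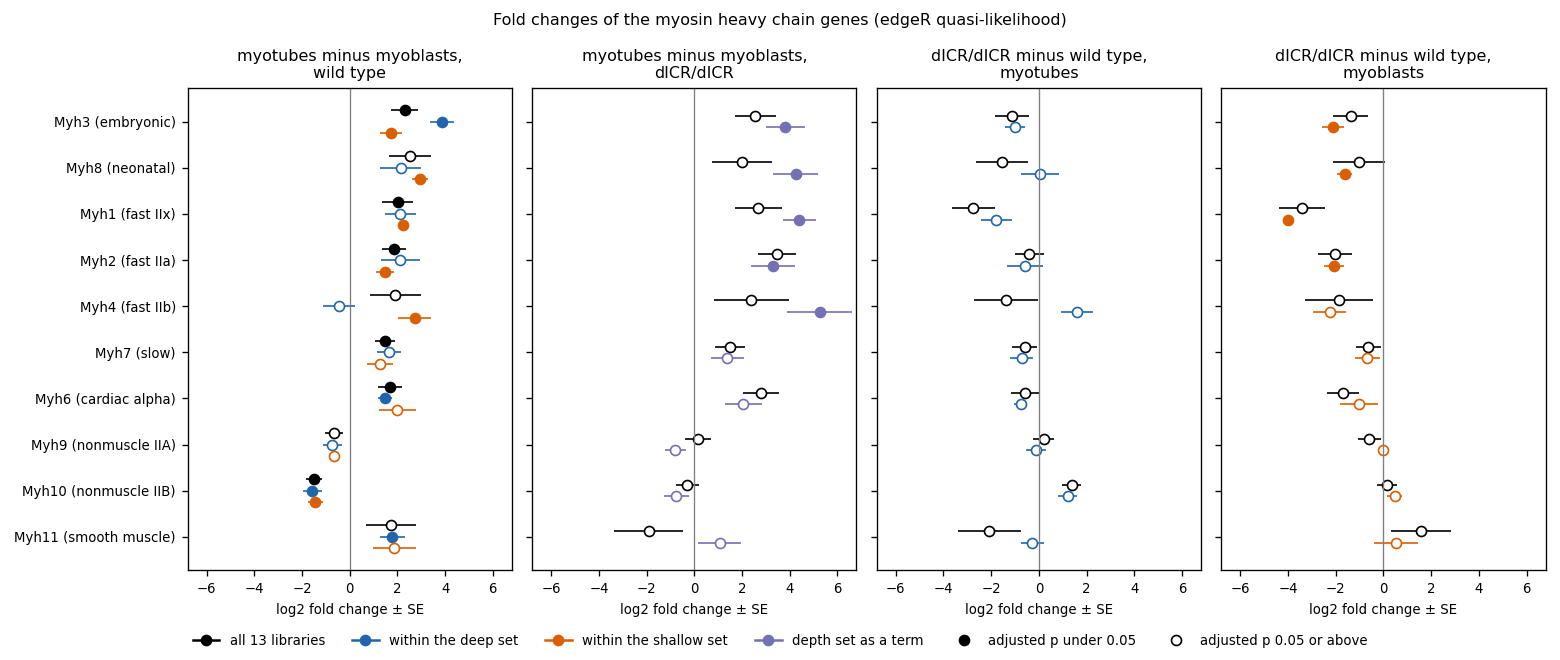
Log2 fold changes (points) with standard errors (bars) of the 10 genes in 4 comparisons, over all 13 libraries and within a depth set or, for dICR/dICR differentiation, with the depth set as a term; filled points have an edgeR adjusted p under 0.05. Myh10 is filled and below 0 in all 3 fits of wild-type differentiation, and Myh1 is at -3.42 over all libraries and -4.00 within the shallow set in dICR/dICR minus wild-type myoblasts.

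For dICR/dICR against wild-type myoblasts, no member passed over all libraries (edgeR), and 0.0302% of all genes did, with 2009 genes at an unadjusted p under 0.05. H19, the check of the deletion, did not pass in this fit either, at -7.35 ± 1.13 (edgeR adjusted p = 0.0562). Within the shallow set H19 passed at -8.14 ± 0.52 (edgeR adjusted p = 0.000877). The fit over all libraries can thus miss large changes. DESeq2 called 1 member, Myh1, at -3.35 (adjusted p = 0.00442), and 3.09% of genes. Within the shallow set, which holds both dICR/dICR myoblast libraries and wild-type myoblasts 3 and 4, 4 members fell: Myh1, Myh3, Myh8 and Myh2. In that fit 21.6% of all genes passed, 10.3% lower. Wild-type myoblasts 3 and 4 differed least of all replicate pairs (chi-square per degree of freedom 4.7), and whether they were separate cultures is not stated.

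Myh1 had 19.5 and 17.7 CPM in dICR/dICR myoblasts, against 95.9 and 97.3 CPM in the deep and 336 and 270 CPM in the shallow wild-type myoblasts. Both mutant libraries were below every wild-type library of either set. The change was -3.42 ± 0.95 over all libraries (edgeR adjusted p = 0.208), -4.06 ± 0.59 with the depth set as a term (edgeR adjusted p = 0.00859; 2.01% of genes passed) and -4.00 ± 0.22 within the shallow set (edgeR adjusted p = 0.000839). Myh2, the neighbour with which Myh1 shares the run printed above, stood at 1.33 and 1.04 CPM in dICR/dICR myoblasts (17 and 8 counts), against 3.83 to 6.54 CPM in wild-type myoblasts. It was below all wild-type libraries too, with -2.02 ± 0.72 over all libraries (edgeR adjusted p = 0.307) and -2.08 ± 0.41 within the shallow set (edgeR adjusted p = 0.0131). Myh4 had 9.85 and 15 CPM in the mutant myoblasts, against 28.1 to 62.5 CPM in wild-type myoblasts, without overlap. Its change was -1.85 ± 1.43 over all libraries and -2.26 ± 0.71 within the shallow set, and it did not pass in either (edgeR adjusted p = 0.599 and 0.058).

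Myh3 and Myh8 in dICR/dICR myoblasts were below the shallow wild-type myoblasts and spanned the level of the deep ones. Myh3 had 1290 and 550 CPM in dICR/dICR myoblasts, against 828 and 702 CPM in the deep and 3920 and 4080 CPM in the shallow wild-type myoblasts. Its change was -1.37 ± 0.74 over all libraries (edgeR adjusted p = 0.458) and -2.11 ± 0.47 within the shallow set (edgeR adjusted p = 0.019). Myh8 had 199 and 104 CPM in dICR/dICR myoblasts, against 147 and 127 CPM in the deep and 525 and 428 CPM in the shallow wild-type myoblasts, with -1.02 ± 1.10 over all libraries and -1.63 ± 0.32 within the shallow set (edgeR adjusted p = 0.717 and 0.0127).

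Other measures move with the shallow comparison. Summed myotube markers were 1170 and 754 CPM in dICR/dICR myoblasts, against 4920 and 5350 CPM in wild-type myoblasts 3 and 4. Of 18 thick filament partners tested there, 11 fell and 1 rose, with a median of -1.52, against 0.01 for all genes, of which 10.3% fell. Of 21 regulators 9 fell and 0 rose, with a median of -0.83. Myom3 (-2.39 ± 0.35), Myl1 (-2.23 ± 0.31), Vgll2, a cofactor of TEAD factors (-3.19 ± 0.37), and Myog (-2.09 ± 0.43) were among those with the largest falls, at edgeR adjusted p = 0.00316 to 0.0144. The Y-linked gene Ddx3y stood at 14.5 and 63.1 CPM in dICR/dICR myoblasts, against 0.247 and 0.153 CPM in wild-type myoblasts 3 and 4, so in this comparison genotype and Y-linked expression coincide and cannot be told apart. The part of the differentiation markers in the falls was not tested.

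The slow, cardiac, nonmuscle and smooth muscle chains did not pass in myoblasts over all libraries or within the shallow set. Myh7 had 159 and 64.4 CPM in dICR/dICR myoblasts, where wild-type myoblasts had 160 to 181 CPM (-0.63 ± 0.54, and -0.67 ± 0.54 within the shallow set). Myh6 had 6.49 and 3.91 CPM in dICR/dICR myoblasts, below the 10.6 to 24.1 CPM of wild-type myoblasts, with a change of -1.69 ± 0.67 (edgeR adjusted p = 0.355) and of -1.04 ± 0.80 within the shallow set. Myh9 had 1240 and 1340 CPM in dICR/dICR myoblasts, against 1320 and 1310 CPM in the shallow and 2770 and 2420 CPM in the deep wild-type myoblasts, a change of -0.60 ± 0.48 over all libraries and -0.01 ± 0.22 within the shallow set. Myh10 had 263 and 408 CPM in dICR/dICR myoblasts, inside the 231 to 416 CPM of wild-type myoblasts (0.15 ± 0.42, and 0.47 ± 0.32 within the shallow set), and Myh11 had 1.25 and 2.09 CPM in dICR/dICR myoblasts from 16 counts each, against 0.117 to 1.23 CPM in wild-type myoblasts (1.56 ± 1.26, and 0.51 ± 0.92 within the shallow set).

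Across the 13 libraries, the genes whose log2 CPM ran most like that of a member were, as a description, Lmod3, Hrc and Iffo1 for Myh3 (Pearson r = 0.989, 0.988 and 0.987), Sypl2, Hspb7 and Rbfox1 for Myh8 (0.976, 0.964 and 0.948), Palm3, Mllt3 and Myo18b for Myh1 (0.964, 0.958 and 0.957), Camk2b, Stard8 and Myot for Myh4 (0.924, 0.910 and 0.907), and Rad50, Gmnn and Ttc21b for Myh10 (0.976, 0.973 and 0.972). Lmod3 nucleates thin filaments, Hrc binds calcium in the sarcoplasmic reticulum, Rad50 repairs DNA breaks and Gmnn, geminin, limits DNA replication. For Myh2, Myh7, Myh6, Myh9 and Myh11 the highest values were 0.944, 0.940, 0.937, 0.942 and 0.942, with Gatsl2, Jhdm1d, Dffa, Zrsr2 and Cpa5. Between members, r was 0.88 for Myh6 and Myh7, 0.84 for Myh8 and Myh1, 0.83 for Myh3 and Myh7, 0.81 for Myh8 and Myh4, and -0.82 for Myh3 and Myh10. Sequence is shared by Myh6 and Myh7, and also by Myh8 with Myh1 and Myh4 (5.20 and 4.28% of the 75-base windows of Myh8). These libraries also share groups, stage and depth, so the values describe the libraries and carry no test.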

How the data were processed

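RNA was measured by RNA-seq after depletion of ribosomal RNA, per the labels' protocols, from cultures with RNA integrity numbers above 9. The deposited table holds raw read counts per gene for all 13 libraries; TopHat2, HTSeq and the build mm9 are named in the submitters' processing notes. Their versions, the annotation and the strand setting: not given in the sources used here. Without a stated strand setting, reads of a gene and of an antisense partner cannot be told apart.

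From these counts, edgeR 4.0.16 (R 4.3.3) fitted 4 group means to all 13 libraries with TMM scaling after filterByExpr (minimum count 10, minimum total 15), which kept 16537 genes and all 10 members; quasi-likelihood tests were two-sided, with Benjamini-Hochberg adjustment over all genes kept and a threshold of 0.05. TMM-scaled CPM is used for levels, and levels between genes are divided by the length of the transcript with the longest coding sequence in GENCODE M21. That annotation and the RefSeq promoters are on GRCm38, not mm9, so no coordinates were carried over from the table. Fits within a depth set (above or below 20 M counts) used every library of that set: 7 deep libraries with 14952 genes and 6 shallow libraries with 12583 genes. DESeq2 1.42.0 was an alternative. Procedures were tested on simulated data. Genes of a list are named if called, at most 6 per list and comparison by size of change; with fewer than 2 called, the 2 of largest size are given as values. The members and lists were chosen with earlier results of these data known. Each library counted as 1 sample. All replicate pairs differed beyond sampling noise (chi-square per degree of freedom 4.7 or more), with wild-type myoblasts 3 and 4 the closest pair. Repeat libraries of 1 culture can differ in this way too, so the measure does not show separate cultures.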

Additional observations from a re-analysis of the deposited data

Results flagged for a closer look

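In groups of 4 or 5 libraries, the highest and lowest values of each member were set against the gap to the next library. Of 20 groups looked at, 2 had a library far from the others, both times wild-type myotube 5. A chance rate of about 1 in 20 groups holds for independent, normally distributed values. These were CPM of correlated genes in the same libraries, so no chance rate is given. As log2 CPM, Myh4 ran 2.16, 5.04, 4.73, 6.83 and 9.38 in wild-type myotubes 1 to 5, a more even spread. Myh11 ran -1.02, -0.49, -0.79, 0 and 2.97. Myh4 stood at 665 CPM there, against 4.38 to 114 CPM in the other wild-type myotubes, a gap of 0.834 of the whole range. Myh11 stood at 7.74 CPM, from 38 counts, against 0.419 to 0.923 CPM in the other wild-type myotubes, a gap of 0.931 of the range.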

How the results depend on the processing

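Alternatives were library size alone, no low-count filter, DESeq2, the depth set as a term, fits within a depth set, a replicate block, and each library left out. Myh3 and Myh10 passed in wild-type differentiation under all of them. The number of members called moved as follows. In the genotype effect in myotubes it was 2 with DESeq2 and 0 to 1 with a library left out, and in myoblasts 1 with DESeq2, 1 with a depth term and 4 within the shallow set. In wild-type differentiation it was 4 with library size alone, 6 with no filter, 7 with DESeq2 (26.5% of all genes), 9 with the depth set as a term (31.8%), 4 within the deep and 6 within the shallow set, and 2 to 8 with a library left out: 2 when wild-type myoblast 1 or 4 or wild-type myotube 3 was left out, 3 when wild-type myoblast 2 or wild-type myotube 5 was, and 8 when wild-type myotube 2 was. In dICR/dICR differentiation it was 3 with DESeq2, 5 with the depth set as a term, 0 to 1 with a library left out, and 6 with the dICR/dICR libraries alone (14.2% of all genes).

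Several fold changes that did not pass changed sign, and the cause was not tested. In the genotype effect in myotubes, the depth term gave Myh4 0.92 and Myh9 -0.11, and within the deep set Myh8 0.04, Myh4 1.59 and Myh9 -0.12. With a library left out, Myh2 ranged from -1.02 to 0.09, Myh4 from -1.73 to 0.53 and Myh7 from -1.85 to 0.06. In myoblasts Myh10 ranged from -0.21 to 0.43. In wild-type differentiation Myh4 was -0.47 within the deep set and -0.01 to 2.23 with a library left out. In dICR/dICR differentiation Myh9 was -0.15 with library size alone, the depth term gave Myh9 -0.79 and Myh11 1.06, and Myh10 ranged from -0.83 to 0.10. In the difference between the differentiation changes, the depth term gave Myh8 1.79, Myh7 -0.06 and Myh9 -0.06, DESeq2 gave Myh7 -0.12, and with a library left out Myh3 ranged from -0.31 to 1.01, Myh8 from -1.25 to 0.01 and Myh7 from -1.23 to 0.84.

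Whether replicate numbers in the labels pair the libraries could not be decided. Deviations from the group means of same-numbered wild-type myotubes and myoblasts correlated at 0.43, 0.52, -0.41 and 0.52. These values ran with the depth set. Wild-type myotube 2 and wild-type myoblast 1, both deep, gave 0.54, and wild-type myotube 4 and wild-type myoblast 1, of different sets, gave -0.6. With 2 libraries a group, dICR/dICR deviations mirror each other, so same-numbered pairs gave -0.39 and the others 0.39. With the replicate number as a block, 5 members passed in wild-type differentiation, where 18.5% of all genes did, and 0 in the other comparisons, where 0.605% (dICR/dICR differentiation), 0.0181% (genotype effect in myotubes) and 0% did. The block gave Myh8 0.74, Myh2 0.14, Myh4 1.84, Myh9 -0.30 and Myh11 0.24 for the genotype effect in myotubes, Myh8 0.41 and Myh10 -0.23 in myoblasts, Myh4 -0.59 for wild-type differentiation, and Myh8 0.33 for the difference. In the dICR/dICR libraries alone, 6 members passed with the block and 8 with the numbers crossed, where 9.6 and 39.6% of all genes did. Both of these fits were added after the data were seen, and they do not show which libraries belong together.

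Depth limits Myh11 (6 to 38 counts a library) and Myh2 in dICR/dICR myoblasts (17 and 8 counts). The shares without division by length moved by less than their spread.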
